A study of Homo sapiens with 8 samples.

Results

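The 40 genes described here act in homologous recombination and in the Fanconi anemia pathway, the routes by which a cell repairs broken and crosslinked DNA without loss of sequence. They were chosen by name and are 40 of the 60282 genes listed in this series. Only 33219 of the listed genes were above 0 in any library. The cells were SK-UT-1, an established human line from a uterine leiomyosarcoma, a malignant tumor of uterine smooth muscle, and the only line among these libraries. They were treated for 48 h with 5 µM TP-472, a small-molecule inhibitor of the bromodomain protein BRD9, or with DMSO as vehicle, in 4 replicates each. The question was which members of the pathway had a different RNA level after TP-472. The study's methods describe biological replication of its experiments in general, and the labels do not say whether these libraries came from separate cultures, so p-values measure the spread between these samples, of whatever origin.

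In homologous recombination, the MRE11-RAD50-NBN complex finds a double-strand break and, with ATM and RBBP8, starts the trimming of its ends. The single strands that remain are coated, ATR and CHEK1 are called to them, and BRCA1, PALB2 and BRCA2 with further mediator proteins prepare them for pairing with the sister chromatid. When a DNA crosslink stalls a replication fork, the Fanconi core complex with the E2 enzyme UBE2T attaches ubiquitin to FANCD2 and FANCI, and nucleases held by SLX4 then cut the crosslink out. Tumors that lose this route depend on other repair pathways, which is the basis of treatment with PARP inhibitors, and several of these genes are most active in cells that replicate their DNA.

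Total counts ran from 32574716 (replicate 3) to 36634184 per vehicle library and from 36246466 to 38545695 per TP-472 library. The genes above 0 numbered 23333 to 23943 per vehicle library and 25386 to 26215 per TP-472 library. The mitochondrial share was 0.2855% to 0.4236% in the vehicle libraries and 0.1988% to 0.2824% in the TP-472 libraries. The part of these measures in the results below was not tested. Levels are given as CPM, that is, counts set to the same sequencing depth and composition by edgeR's TMM method, and every member had at least 79 counts in every library and passed the filter of more than 1 CPM in at least 4 libraries. Of 10 smooth muscle genes, 7 passed the same filter, with CALD1 the most abundant in all 8 libraries but with MYH11, ACTG2 and MYOCD at most 10 counts in any library. Their summed level was 437.9, 478.5, 521.5 and 479.9 CPM in the vehicle libraries (replicates 1 to 4, an order kept throughout) and 378.8, 376.9, 372.3 and 370.0 CPM in the TP-472 libraries. Of the 7, TAGLN, DES, LMOD1 and ACTA2 were lower after TP-472 by edgeR's quasi-likelihood test with all libraries. Their log2 fold changes were −0.67, −2.36, −1.84 and −0.55 (adjusted p = 0.00397, 1.89e-04, 0.00401 and 0.00426). The change of ACTA2 was less than 1.5-fold. CNN1, CALD1 and SMTN did not pass that test's adjusted p (log2 fold change 0.13, −0.059 and −0.68, adjusted p = 0.696, 0.646 and 0.1495). MYH11, under the filter, had 0, 0, 0 and 1 counts in the vehicle libraries and 10, 8, 7 and 10 in the TP-472 libraries. The receptor genes ESR1 and PGR had at most 3 counts in a library. Of the markers of other cell types, 0 of 4 endothelial, 1 of 5 immune (CD68) and 3 of 5 epithelial genes (KRT8, KRT18 and KRT19) passed the filter, with KRT18 higher and KRT19 lower after TP-472 (log2 fold change 1.08 and −0.85, adjusted p = 7.26e-04 and 0.0151), and PTPRC, CD3E and MS4A1 were at 0 or 1 count. CD68 was higher by edgeR's adjusted p alone, with a change of less than 1.5-fold (log2 fold change 0.47, adjusted p = 0.0307). The part of these marker levels in the results below was not tested.

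Vehicle replicate 3 stood apart from the other libraries. Its median Spearman correlation with the other vehicle libraries was 0.914, whereas the other vehicle libraries had values of 0.988 to 0.989 and the TP-472 libraries 0.993 to 0.997. Among the 40 genes it was the lowest of the vehicle libraries for 27 and the highest for 11. Its level was more than 1.5-fold below the mean of the other vehicle libraries for 15 genes and more than 1.5-fold above it for 4. Over all 14073 genes tested those shares were 22.1% and 25.9%. The members' median coefficient of variation was 21.5% over the 4 vehicle libraries, 6.69% without replicate 3, and 5.60% over the 4 TP-472 libraries. For this reason the log2 fold change of each member is given with all 8 libraries and again without vehicle replicate 3.

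**Figure D1:**
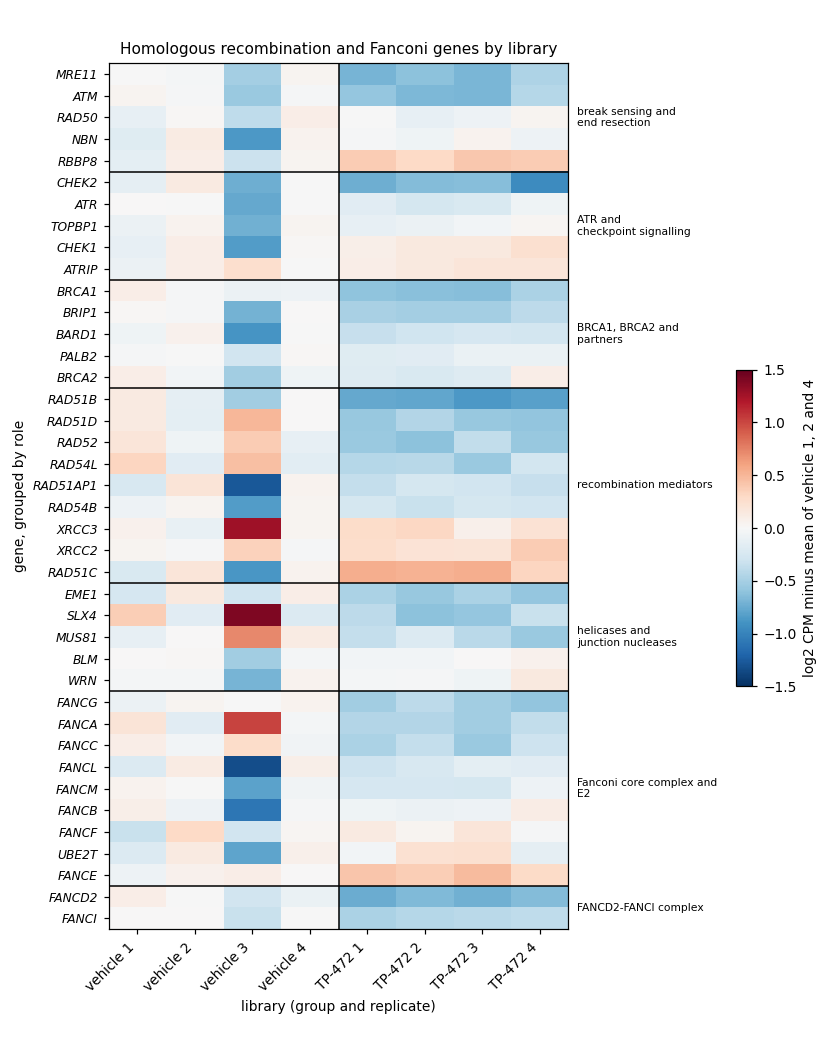
Level of each of the 40 genes in each library, as the log2 CPM difference from the mean of vehicle replicates 1, 2 and 4 (red, higher; blue, lower), with genes in rows grouped by role and libraries in columns. Vehicle replicate 3 differs from the other vehicle columns in both directions, and RAD51B, FANCD2, BRCA1 and CHEK2 are lower in every TP-472 column than in vehicle replicates 1, 2 and 4.

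With all 8 libraries, 8 of the 40 genes were lower and 1 was higher after TP-472 (edgeR quasi-likelihood F test, adjusted p under 0.05 over all 14073 genes and a fold change over 1.5). Those are 20.0% and 2.50% of the members, beside 14.9% of all genes tested that were called lower and 12.0% called higher. The genes lower were SLX4, FANCA, RAD51B, RAD51D, RAD52, FANCD2, MUS81 and CHEK2, and the gene higher was RAD51C. Without vehicle replicate 3, 6 members (15.0%) were called lower, namely RAD51B, CHEK2, FANCD2, MRE11, BRCA1 and ATM, and 0 were called higher, against 13.4% and 12.0% of all genes. At an unadjusted p under 0.05 in the edgeR fit with all 8 libraries, 16 members were lower and 3 higher, beside 25.5% and 22.3% of all genes, and without that replicate 24 were lower and 6 higher, beside 31.1% and 30.9% of all genes. DESeq2 on all 8 libraries called 8 members lower and 1 higher, beside 17.5% and 12.5% of all genes. RAD51B, FANCD2 and CHEK2 were called in both fits. In bulk RNA, a smaller share of cells in a given state and less RNA per cell cannot be told apart.

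Without the limit on the fold change, 16 members were lower and 3 higher at an adjusted p under 0.05 with all 8 libraries, beside 19.1% and 17.2% of all genes. Leaving out vehicle replicate 3, 22 members (55.0%) were lower and 5 (12.5%) higher, beside 28.4% and 28.6% of all genes. The groups did not overlap, with all treated libraries lower, for 13 members (21.6% of all genes), and with all treated libraries higher, for 3 members (23.8% of all genes). Without vehicle replicate 3 those counts were 23 (28.7% of all genes) and 6 (29.8% of all genes). The members' median log2 fold change was −0.11 with all 8 libraries and −0.26 without vehicle replicate 3, whereas the median of all genes was −0.026 with all libraries and −2.14e-05 without that replicate. The members' own range ran from −1.003 (SLX4) to 0.66 (RAD51C), and from −0.83 (RAD51B) to 0.48 (RAD51C) without vehicle replicate 3. Fold changes in the text that follows are on the log2 scale, TP-472 over vehicle, given ± 1 standard error of the edgeR fit, and gene positions are on GRCh38 from GENCODE 29.

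**Figure D2:**
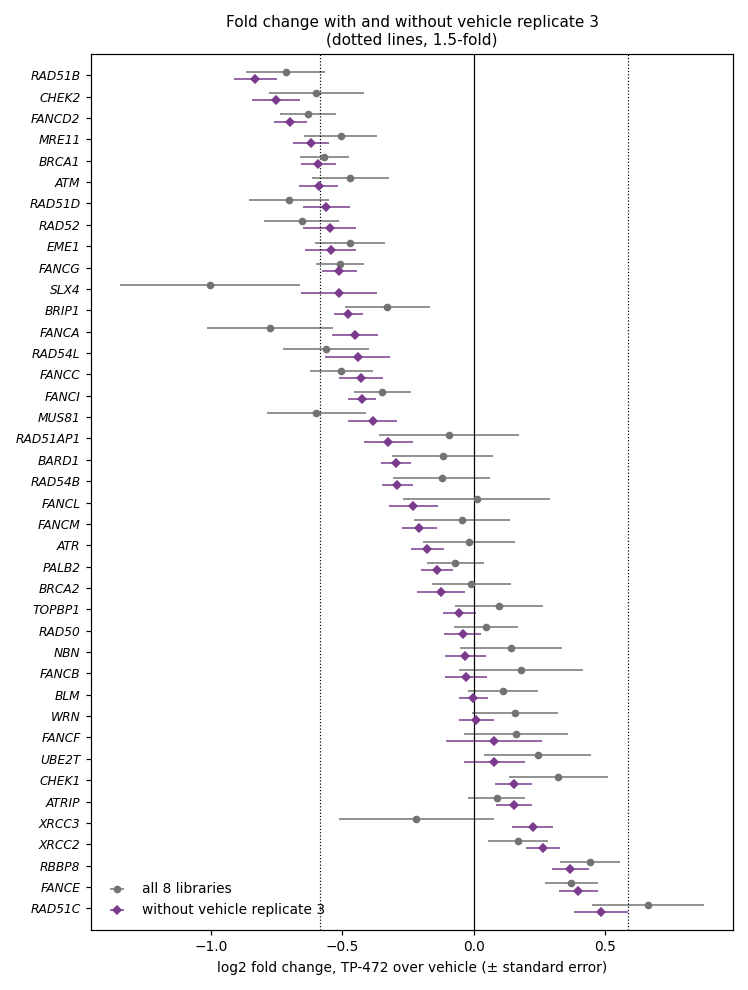
Log2 fold change of each of the 40 genes, TP-472 over vehicle, with all 8 libraries (grey circles) and without vehicle replicate 3 (purple diamonds); bars are ± 1 standard error and dotted lines mark a 1.5-fold change. RAD51B, CHEK2 and FANCD2 lie beyond the lower line in both fits, and the estimates of SLX4, FANCA and MUS81 move towards 0 without the replicate.

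Among the genes that sense a break and trim its ends, MRE11 and ATM were lower in the comparison without vehicle replicate 3 and missed the fold limit with it. The level of MRE11, the nuclease of the sensing complex, was 56.9, 55.6, 39.7 and 58.5 CPM in the vehicle libraries and 35.0, 36.9, 35.3 and 41.1 CPM in the TP-472 libraries. Vehicle replicate 3 fell between the lowest and the highest TP-472 library, and the other vehicle libraries were above all of them. MRE11 had an estimate of −0.51 ± 0.14 (adjusted p = 0.0217) with all libraries and of −0.62 ± 0.069 (adjusted p = 6.86e-05) without vehicle replicate 3. ATM, the kinase that the complex activates at breaks, had 228, 218, 151 and 218 CPM in the vehicle libraries and 148, 138, 138 and 165 CPM in the TP-472 libraries. Again vehicle replicate 3 alone overlapped the treated group. The log2 fold change of ATM was −0.47 ± 0.15 (adjusted p = 0.0339), and −0.59 ± 0.073 (adjusted p = 1.32e-04) without vehicle replicate 3. ATM did not pass edgeR's adjusted p without vehicle replicate 1, 2 or 4 (0.0682 to 0.0868). The same held without TP-472 replicate 1, 2 or 3 (0.0799 to 0.0965) and with a replicate block (0.0644). MRE11 did not pass it without vehicle replicate 1 or 4 (0.0575 and 0.0516). Without TP-472 replicate 1, 2 or 3 MRE11 did not pass either (0.0627 to 0.0696). Of the other subunits of the complex, RAD50, its ATPase, had a log2 fold change of 0.045 (adjusted p = 0.786) with all libraries and −0.042 (adjusted p = 0.634) without vehicle replicate 3. For NBN, its adaptor, these were 0.14 (adjusted p = 0.587) and −0.033 (adjusted p = 0.738). RBBP8, which activates the nuclease for end trimming, lay in the opposite direction, with 44.9, 53.2, 39.7 and 51.1 CPM in the vehicle libraries and 64.8, 61.2, 66.0 and 64.6 CPM in the TP-472 libraries. The groups of RBBP8 did not overlap, and its log2 fold change of 0.44 ± 0.11 (adjusted p = 0.0170), and of 0.37 ± 0.070 (adjusted p = 0.00173) without vehicle replicate 3, was below the fold limit.

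In the ATR and checkpoint group, CHEK2 was lower in both comparisons and the remaining 4 genes were called in neither. With any single library other than vehicle replicate 3 left out, CHEK2 was not called in edgeR's fit (adjusted p = 0.0656 to 0.0846), nor with a replicate block (adjusted p = 0.0742). CHEK2, the checkpoint kinase downstream of ATM, lies on chromosome 22 from 28687743 to 28742422 (minus strand, ENSG00000183765.22). Its level was 55.3, 66.6, 36.3 and 60.1 CPM in the vehicle libraries and 36.1, 38.3, 38.6 and 31.2 CPM in the TP-472 libraries. Vehicle replicate 3 was as low as the treated libraries, and the other vehicle libraries were all above them. CHEK2 had a log2 fold change of −0.60 ± 0.18 (adjusted p = 0.0313), and −0.75 ± 0.091 (adjusted p = 1.17e-04) without that replicate. CHEK1, the kinase that ATR activates, had 67.2, 78.6, 40.7 and 74.5 CPM in the vehicle libraries and 77.7, 81.1, 80.9 and 86.4 CPM in the TP-472 libraries, and its log2 fold change was 0.32 (adjusted p = 0.204), and 0.15 (adjusted p = 0.0905) without vehicle replicate 3. ATR itself had −0.019 (adjusted p = 0.939) with all libraries and passed the adjusted p alone without that replicate, at −0.18 (adjusted p = 0.0345). Its partner ATRIP had 0.086 (adjusted p = 0.548), and 0.15 (adjusted p = 0.0802) without the replicate. The sign of its activator TOPBP1 turned, from 0.096 (adjusted p = 0.671) to −0.055 (adjusted p = 0.490).

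All 5 genes of the BRCA1 and BRCA2 group had an estimate below 0 in both comparisons, and BRCA1 was the one called, without vehicle replicate 3. Of all 14073 genes tested, 7293 had an estimate below 0 with all libraries and 7038 without that replicate. BRCA1, a ubiquitin ligase subunit that promotes end trimming and recruits PALB2, lies on chromosome 17 from 43044295 to 43170245 (minus strand, ENSG00000012048.23). Its level was 118, 109.7, 104 and 105 CPM in the vehicle libraries and 72.6, 71.5, 70.6 and 79.4 CPM in the TP-472 libraries. All treated libraries were below all vehicle libraries, and vehicle replicate 3 differed little from replicate 4. BRCA1 had an estimate of −0.57 ± 0.093 (adjusted p = 0.00232) with all 8 libraries, short of the fold limit, and −0.59 ± 0.067 (adjusted p = 7.80e-05) without vehicle replicate 3, just past it. BRIP1, a helicase that binds BRCA1, had a log2 fold change of −0.33 (adjusted p = 0.135) with all libraries and −0.48 (adjusted p = 8.22e-05) without vehicle replicate 3. For BARD1, the obligate partner of BRCA1 in the ligase, these were −0.12 (adjusted p = 0.644) and −0.30 (adjusted p = 0.00180). Leaving out 1 library thus brought both past the adjusted p. PALB2, which bridges BRCA1 and BRCA2, had −0.071 (adjusted p = 0.629), and −0.14 (adjusted p = 0.0761) without the replicate. BRCA2, a mediator of strand exchange, had −0.010 (adjusted p = 0.962) and −0.12 (adjusted p = 0.266), with 65.6, 59.6, 42.4 and 58.3 CPM in the vehicle libraries and 53.3, 51.9, 53.3 and 65.7 CPM in the TP-472 libraries.

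The recombination mediators moved in both directions. RAD51B, RAD51D and RAD52 were lower with all 8 libraries, RAD51C was higher, and RAD51B alone was called without vehicle replicate 3. RAD51B, a subunit of a complex that mediates strand exchange, lies on chromosome 14 from 67819779 to 68730218 (plus strand, ENSG00000182185.18). It had 26.2, 21.6, 16.5 and 24.0 CPM in the vehicle libraries and 13.8, 13.7, 13.0 and 13.3 CPM in the TP-472 libraries. The 4 TP-472 libraries were close together and all were below the lowest vehicle library. Its log2 fold change was −0.71 ± 0.15 (adjusted p = 0.00700), and −0.83 ± 0.082 (adjusted p = 3.41e-05) without vehicle replicate 3. RAD51C, which sits in the same complex as RAD51B, lies on chromosome 17 from 58692573 to 58735611 (plus strand, ENSG00000108384.15). Its level was 22.5, 30.2, 14.2 and 27.5 CPM in the vehicle libraries and 38.9, 38.3, 38.9 and 33.4 CPM in the TP-472 libraries. Each TP-472 library was above each vehicle library. The log2 fold change of RAD51C was 0.66 ± 0.21 (adjusted p = 0.0379), and 0.48 ± 0.10 (adjusted p = 0.00329) without vehicle replicate 3, where it missed the fold limit. It kept its call in the fits without vehicle replicate 2 or 4 and lost it without any other library.

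RAD51D, another subunit of the same complex, had 21.4, 17.4, 27.5 and 19.5 CPM in the vehicle libraries and 12.9, 14.2, 12.9 and 12.7 CPM in the TP-472 libraries. Its groups did not overlap, and vehicle replicate 3 was the highest library. For RAD51D the log2 fold change came to −0.70 ± 0.15 (adjusted p = 0.00816), and −0.56 ± 0.089 (adjusted p = 5.69e-04) without that replicate. RAD52, which anneals complementary single strands, had 22.1, 18.5, 25.4 and 17.8 CPM in the vehicle libraries and 13.0, 12.4, 14.9 and 12.9 CPM in the TP-472 libraries, again without overlap. Its log2 fold change was −0.65 ± 0.14 (adjusted p = 0.00852), and −0.55 ± 0.10 (adjusted p = 0.00131) without vehicle replicate 3. RAD54L, a motor protein that remodels the recombination intermediate, was lower at −0.56 (adjusted p = 0.0269), and at −0.44 (adjusted p = 0.0131) without vehicle replicate 3, below the fold limit. Its relative RAD54B had −0.12 (adjusted p = 0.623) with all libraries and −0.29 (adjusted p = 0.00219) without that replicate. For RAD51AP1, which stimulates strand pairing, these were −0.094 (adjusted p = 0.799) and −0.32 (adjusted p = 0.0143), so that both genes passed the adjusted p without the replicate and not with it. XRCC2, the partner of RAD51D, had 0.17 (adjusted p = 0.268) with all libraries and 0.26 (adjusted p = 0.00626) without vehicle replicate 3. With the trend over GC content removed XRCC2 had −0.017 (adjusted p = 0.943), and 0.23 (adjusted p = 0.00625) with vehicle replicate 3 left out as well. XRCC3, the partner of RAD51C outside the larger complex, had −0.22 (adjusted p = 0.578), and 0.22 (adjusted p = 0.0346) without the replicate. For XRCC3 the sign turned with that library, since its level was 33.7, 29.7, 78.4 and 33.1 CPM in the vehicle libraries and 39.0, 40.02, 33.8 and 37.4 CPM in the TP-472 libraries.

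**Figure D3:**
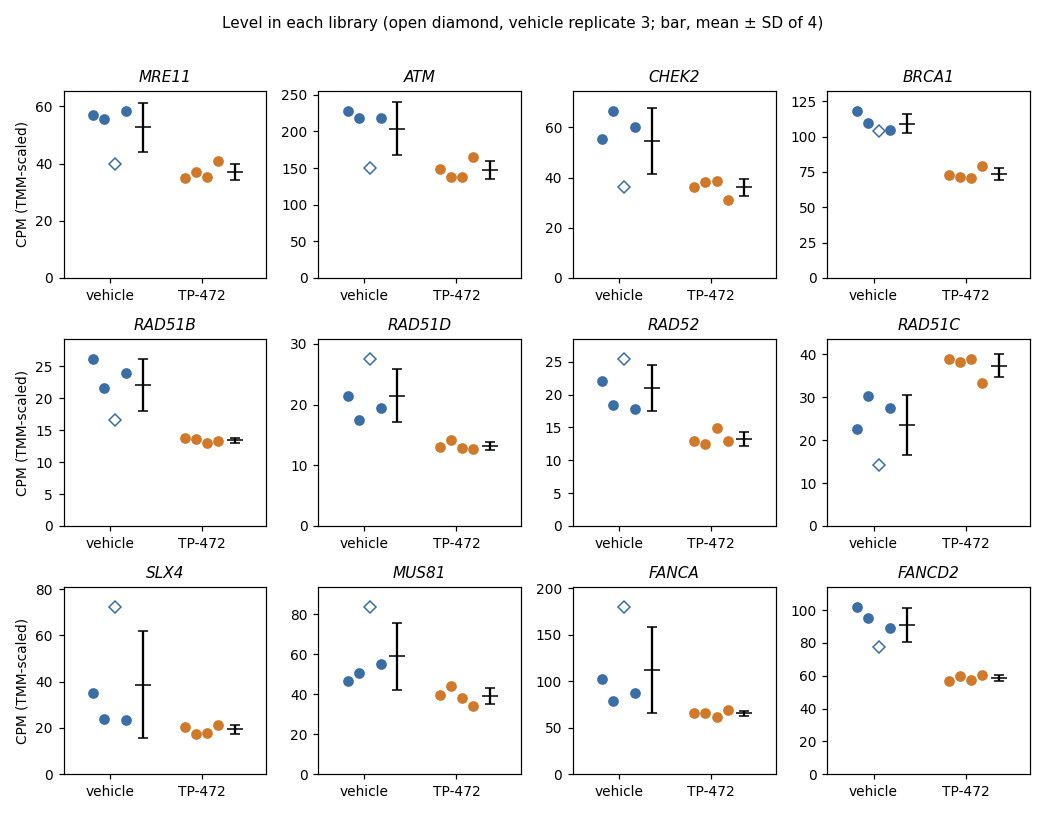
CPM in each library of the 12 genes called in at least 1 of the comparisons (blue, vehicle; orange, TP-472; open diamond, vehicle replicate 3; horizontal mark and bar, mean ± SD of the 4 libraries of a group), on linear axes from 0. Vehicle replicate 3 is the lowest vehicle library for MRE11, ATM, CHEK2, BRCA1, RAD51B, RAD51C and FANCD2 and the highest for RAD51D, RAD52, SLX4, MUS81 and FANCA.

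Of the helicases and junction nucleases, SLX4 and MUS81 were lower with all 8 libraries, and neither was called without vehicle replicate 3. SLX4, the scaffold that holds the nucleases for crosslinks and recombination junctions, had 35.1, 24.0, 72.2 and 23.4 CPM in the vehicle libraries and 20.5, 17.5, 17.9 and 21.3 CPM in the TP-472 libraries. Vehicle replicate 3 was far above the other vehicle libraries, and those were still above all treated ones. SLX4 thus had an estimate of −1.003 ± 0.34 (adjusted p = 0.0466), and −0.51 ± 0.14 (adjusted p = 0.0131) without that replicate. MUS81, a junction nuclease bound by SLX4, had 46.4, 50.6, 83.5 and 55.3 CPM in the vehicle libraries and 39.4, 43.9, 38.1 and 34.2 CPM in the TP-472 libraries. Its log2 fold change was −0.60 ± 0.19 (adjusted p = 0.0350), and −0.38 ± 0.093 (adjusted p = 0.00605) without vehicle replicate 3. Neither SLX4 nor MUS81 was called when any single TP-472 library was left out, nor SLX4 without vehicle replicate 1. With the trend over GC content removed the estimate of MUS81 was −0.25 (adjusted p = 0.0349), and −0.28 (adjusted p = 0.0147) with vehicle replicate 3 left out as well. EME1, the subunit that pairs with MUS81, was lower at −0.47 (adjusted p = 0.0235) and −0.54 (adjusted p = 0.00121), below the fold limit in both. The helicases BLM, which dissolves double junctions, and WRN, which acts at stalled forks, had estimates of 0.11 (adjusted p = 0.525) and 0.15 (adjusted p = 0.475) with all libraries, and of −0.002 (adjusted p = 0.973) and 0.009 (adjusted p = 0.916) without vehicle replicate 3.

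In the Fanconi core complex with its E2 enzyme, FANCA was lower with all 8 libraries and 0 of the 9 genes were called without vehicle replicate 3, when 4 were lower and 1 was higher by edgeR's adjusted p alone (5 and 1 by the unadjusted p). Those are 44.4% and 11.1% of the 9 by adjusted p, beside 28.4% and 28.6% of all genes. By the unadjusted p the shares of all genes were 31.1% and 30.9%. FANCA, a core subunit, lies on chromosome 16 from 89737549 to 89816657 (minus strand, ENSG00000187741.15). It had 102, 79.2, 179.8 and 87.2 CPM in the vehicle libraries and 65.7, 65.3, 62.0 and 69.0 CPM in the TP-472 libraries. The groups did not overlap, and vehicle replicate 3 was far above the other vehicle libraries. For FANCA the estimate was −0.78 ± 0.24 (adjusted p = 0.0337), and −0.45 ± 0.087 (adjusted p = 0.00172) without that replicate. It was also not called when vehicle replicate 1 or any single TP-472 library was left out. FANCG, which binds FANCA within the core, had 81.7, 89.0, 86.4 and 89.9 CPM in the vehicle libraries and 60.1, 65.8, 60.4 and 57.3 CPM in the TP-472 libraries. Its log2 fold change was −0.51 (adjusted p = 0.00346) with all libraries and −0.51 (adjusted p = 1.73e-04) without vehicle replicate 3, below the fold limit in both. With the trend over GC content removed it was −0.30 (adjusted p = 0.114), and −0.45 (adjusted p = 2.51e-04) with vehicle replicate 3 left out as well. FANCC, another core subunit, had −0.50 (adjusted p = 0.0122), and −0.43 (adjusted p = 0.00182) without vehicle replicate 3. The translocase FANCM, which anchors the core to DNA, had −0.044 (adjusted p = 0.864) with all libraries and passed the adjusted p without that replicate, at −0.21 (adjusted p = 0.0232). FANCE, which joins the core to FANCD2, lay in the opposite direction with 18.2, 20.0, 20.6 and 19.3 CPM in the vehicle libraries and 25.8, 24.9, 26.9 and 23.4 CPM in the TP-472 libraries, without overlap and with an estimate of 0.37 (adjusted p = 0.0215), and of 0.40 (adjusted p = 0.00149) without vehicle replicate 3. The ubiquitin ligase subunit FANCL had 0.011 (adjusted p = 0.978) with all libraries and −0.23 (adjusted p = 0.0592) without vehicle replicate 3, and the E2 enzyme UBE2T 0.24 (adjusted p = 0.365) and 0.078 (adjusted p = 0.589). For FANCB the values were 0.18 (adjusted p = 0.567) and −0.030 (adjusted p = 0.761), and for FANCF 0.16 (adjusted p = 0.539) and 0.077 (adjusted p = 0.738). FANCF was the lowest of the 40 genes per length, at 1.00 CPM per kilobase of its longest coding transcript in the vehicle libraries without replicate 3, and UBE2T the highest at 48.3.

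FANCD2 and FANCI, the pair that the core complex marks with ubiquitin, were both lower. FANCD2 lies on chromosome 3 from 10026414 to 10101930 (plus strand, ENSG00000144554.10). Its level was 102, 94.9, 77.6 and 88.9 CPM in the vehicle libraries and 56.6, 60.0, 57.7 and 60.6 CPM in the TP-472 libraries. All treated libraries were below all vehicle libraries, vehicle replicate 3 included. FANCD2 had an estimate of −0.63 ± 0.11 (adjusted p = 0.00273), and −0.70 ± 0.063 (adjusted p = 2.08e-05) without vehicle replicate 3. Without vehicle replicate 1 its estimate of −0.57 was just under the fold limit. FANCI had 214, 214, 169 and 214 CPM in the vehicle libraries and 153, 159, 161 and 165 CPM in the TP-472 libraries, also without overlap. Its log2 fold change of −0.35 ± 0.11 (adjusted p = 0.0334), and of −0.42 ± 0.054 (adjusted p = 1.46e-04) without vehicle replicate 3, was below the fold limit in both. FANCI did not pass edgeR's adjusted p with any other single library left out (adjusted p = 0.0621 to 0.0956). With a replicate block it did not pass either (adjusted p = 0.11).

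Partner genes were also compared within each library, where the ratio of CPM does not depend on how libraries were scaled. The 11 pairs, and which gene of each is the numerator, were chosen after the levels had been seen, so that their shared direction is no result, and no test was run on them. In 7 pairs each TP-472 library had a lower ratio than any vehicle library, and in 4 the groups overlapped. Over all 780 pairs of the 40 genes the groups did not overlap, in either direction, for 46.3%. The ratio of CHEK2 to CHEK1 was 0.823, 0.848, 0.892 and 0.808 in vehicle and 0.465, 0.472, 0.477 and 0.361 in TP-472. That of ATM to ATR was 1.31, 1.27, 1.49 and 1.27 in vehicle and 0.964, 0.962, 0.931 and 0.998 in TP-472. In both pairs vehicle replicate 3, which stood apart in the level of each gene, had the highest ratio of the vehicle libraries. The ratio of MRE11 to RAD50 was 0.900, 0.800, 0.753 and 0.792 in vehicle and 0.512, 0.583, 0.542 and 0.581 in TP-472. RAD51B to RAD51C gave 1.16, 0.715, 1.16 and 0.873 in vehicle and 0.356, 0.357, 0.333 and 0.398 in TP-472, the pair with the largest difference. RAD51D to XRCC2 gave 0.338, 0.287, 0.352 and 0.322 in vehicle and 0.176, 0.200, 0.183 and 0.158 in TP-472. A ratio shows that the genes of a pair changed unequally, not which of them changed. The remaining pairs without overlap were FANCD2 to FANCI and BRCA1 to BARD1, and those with overlap were ATR to ATRIP, BRCA2 to PALB2, MUS81 to EME1 and BLM to WRN.

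**Figure D4:**
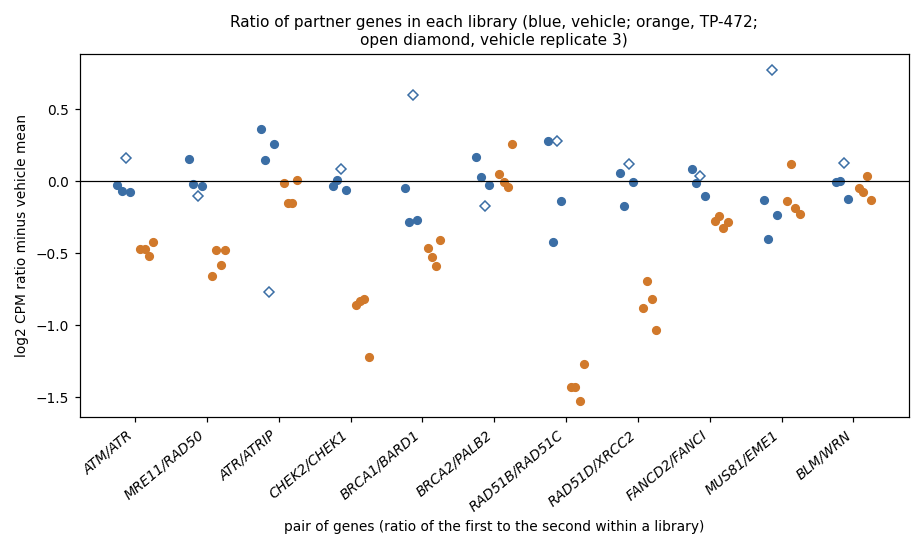
Log2 ratio of the CPM of paired genes within each library, relative to the mean of the vehicle libraries (blue, vehicle; orange, TP-472; open diamond, vehicle replicate 3). The orange points lie below all blue points for 7 of the 11 pairs, lowest for RAD51B/RAD51C and CHEK2/CHEK1.

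The deviation of vehicle replicate 3 moved with the base composition of the genes. Across the 40 members, Spearman's rho between GC content of the longest coding transcript and the log2 CPM difference of that library from the other vehicle libraries was 0.791. Across 13970 genes with a known GC content it was 0.768. These are correlations across genes that share the same libraries, and genes are not independent replicates. Of the 12 members at or below 40% GC, 0 were higher in vehicle replicate 3 and their median difference was −0.82. Of the 18 members above 40% and up to 50% GC, 3 were higher, with a median of −0.36, and of the 10 members above 50% GC, 8 were higher, with a median of 0.36. Over all genes tested, 123 of 2128, 1463 of 5470 and 5375 of 6372 were higher in that library, in the same order of GC content. Between GC content and the log2 fold change of TP-472 over vehicle the rho of the members was −0.381 with all 8 libraries and −0.100 without vehicle replicate 3. Across the 13970 genes these values were −0.319 and −0.072. When the trend with GC content was removed in each library, an alternative of the same fit, 10 members were called lower (BRCA1, RAD51B, RAD51D, RAD52, MRE11, ATM, CHEK2, FANCA, FANCD2 and SLX4) and 0 higher, beside 14.9% and 13.3% of all genes. When vehicle replicate 3 was left out as well, a choice made after the data were seen, 9 were called lower, with EME1 in addition and without FANCA and SLX4, and 0 higher, beside 12.8% and 12.3% of all genes. BRCA1, RAD51B, MRE11, ATM, CHEK2 and FANCD2 were thus called lower in all 3 fits that left out that library, the GC trend or both. With most other single libraries left out instead, MRE11 and ATM did not pass edgeR's adjusted p, and CHEK2 did not with any of them. What made vehicle replicate 3 differ was not tested.

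**Figure D5:**
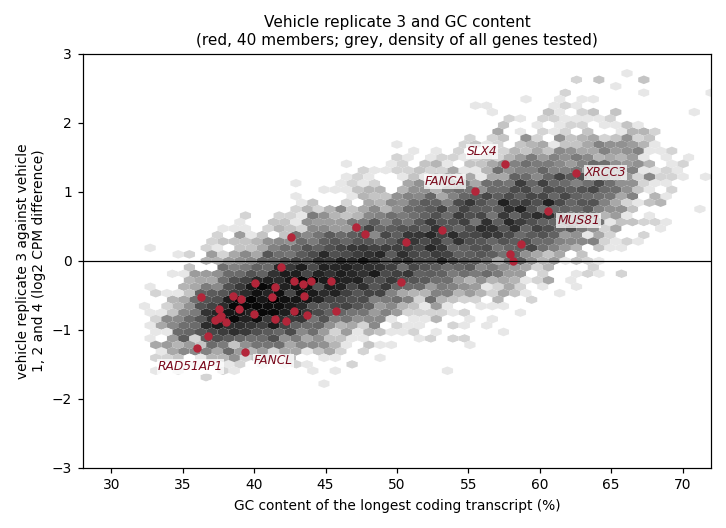
Difference of vehicle replicate 3 from the mean of vehicle replicates 1, 2 and 4 (log2 CPM) against GC content (%) of the longest coding transcript, for the 40 members (red) over the density of all genes tested (grey). Members rich in GC, such as XRCC3, SLX4, FANCA and MUS81, lie above 0, and RAD51AP1 and FANCL, low in GC, lie below.

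Other genes of the pathway were taken from a list of 57, which leaves out the 40 members. All 57 passed the filter, 2 were called lower and 5 higher with all 8 libraries, and 4 lower and 3 higher without vehicle replicate 3. By adjusted p alone, without that replicate, 12 (21.1%) were lower and 21 (36.8%) higher, beside 28.4% and 28.6% of all genes. With all 8 libraries 5 (8.77%) were lower and 9 (15.8%) higher by adjusted p alone, beside 19.1% and 17.2% of all genes. The calls with the fold limit were 3.51% lower and 8.77% higher of the 57 with all libraries, beside 14.9% and 12.0%, and 7.02% and 5.26% without the replicate, beside 13.4% and 12.0%. Their median log2 fold change was 0.11 with all libraries and 0.028 without that replicate. The 2 lower with all libraries were RMI2, a subunit of the complex that dissolves junctions with BLM, at −0.98 (adjusted p = 0.00122), and TIMELESS, which protects the replication fork, at −0.88 (adjusted p = 0.00135). The largest differences upward were in SHLD3, a shieldin subunit that limits end trimming, at 1.25 (adjusted p = 0.00799), and RPA2, a subunit of the protein that coats single strands, at 0.80 (adjusted p = 0.00488). All 4 of these were called in both fits. Of 12 genes of non-homologous end joining, which rejoins ends without a template, 1 was lower and 1 higher with all libraries, 8.33% each. POLM, a polymerase, was lower at −0.89 (adjusted p = 0.0314), and LIG4, the ligase that seals the ends, was higher at 1.15 (adjusted p = 0.00204). POLM was not called without vehicle replicate 3, and LIG4 was, at 0.99 (adjusted p = 1.41e-05).

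Genes of the cell cycle were compared because many repair genes follow it. Of 35 genes of S phase, 0 were called lower and 2 higher in both comparisons, namely CDC6 at 0.83 (adjusted p = 0.00123) and CCNE1 at 0.65 (adjusted p = 0.00388). Those are 0% and 5.71% of the 35, beside 14.9% and 12.0% of all genes, and 13.4% and 12.0% without vehicle replicate 3. By edgeR's adjusted p alone 1 (2.86%) was lower and 7 (20.0%) higher with all 8 libraries, beside 19.1% and 17.2% of all genes, and 5 (14.3%) were lower and 12 (34.3%) higher without vehicle replicate 3, where all genes had 28.4% and 28.6%. By its unadjusted p the numbers were 4 lower and 10 higher, beside 25.5% and 22.3% of all genes, and 5 and 13 without that replicate, beside 31.1% and 30.9%. Their summed level was 4080, 4311, 4382 and 4353 CPM in the vehicle libraries and 4492, 4551, 4528 and 4406 CPM in the TP-472 libraries. Of 30 genes of G2 and mitosis, 1 (3.33%) was called lower with all libraries, beside 14.9% of all genes. That was ESPL1, the protease that parts sister chromatids, at −0.84 (adjusted p = 0.00715). Without vehicle replicate 3, 3 (10.0%) were called lower, beside 13.4% of all genes. The genes added were CDC25C at −0.67 (adjusted p = 3.89e-05) and CDK1 at −0.59 (adjusted p = 4.27e-04). In both comparisons 0 of the 30 were called higher, beside 12.0% of all genes. Without vehicle replicate 3, 13 (43.3%) of these genes were lower and 3 (10.0%) higher by adjusted p alone, beside 28.4% and 28.6% of all genes, and the groups did not overlap with all treated libraries lower for 14 (46.7%), beside 28.7%. With all libraries 3 (10.0%) were lower and 0 higher by edgeR's adjusted p, beside 19.1% and 17.2% of all genes, and 4 lower and 1 higher by its unadjusted p, beside 25.5% and 22.3%. The sum of these genes was 7249, 7451, 6320 and 7142 CPM in the vehicle libraries and 6088, 5985, 6112 and 6058 CPM in the TP-472 libraries. The sum of the 40 repair genes was 2676, 2725, 2216 and 2701 CPM in the vehicle libraries and 2235, 2240, 2248 and 2355 CPM in the TP-472 libraries. For the repair genes vehicle replicate 3 was below the treated group, and the other vehicle libraries were above it. The part of the cell cycle in the levels of the repair genes was not tested.

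Among 22 regulators of cell cycle transcription (E2F factors and their partners, the RB family, the MuvB complex with MYBL2 and FOXM1, and the kinase inhibitors CDKN1A and CDKN1B), 5 (22.7%) were called lower and 2 (9.09%) higher with all 8 libraries, and 4 (18.2%) and 1 (4.55%) without vehicle replicate 3. The shares of all genes were 14.9% and 12.0%, and 13.4% and 12.0% without the replicate. By adjusted p alone, without vehicle replicate 3, 12 (54.5%) were lower and 6 (27.3%) higher, beside 28.4% and 28.6% of all genes and 55.0% and 12.5% of the 40 members. CDKN1B, an inhibitor of cyclin-dependent kinases, was lower at −1.53 (adjusted p = 2.36e-04), and RBL2, the RB relative of the repressor complex in resting cells, at −1.06 (adjusted p = 2.99e-04). CDKN1A, the kinase inhibitor induced by p53, was higher at 2.44 (adjusted p = 2.06e-05), and E2F6, a repressor of the E2F family, at 0.69 (adjusted p = 0.0239). CDKN1A, CDKN1B and RBL2 were also called without vehicle replicate 3, and E2F6 was not.

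Promoters from RefSeq (GRCh38.p14), 250 bases before to 50 bases after the first listed start, were found for 36 of the 40 genes and searched on both strands for motifs of cell cycle promoters. The E2F letters TTTCCCGC, TTTCGCGC, TTTGCCGC or TTTGGCGC were in 5 of the 36 (13.9%), namely FANCA, FANCC, FANCD2, TOPBP1 and XRCC2, and in 3.32% of all 35116 promoters. Among promoters of 9805 protein-coding genes tested here the share was 5.62%. The CHR letters TTTGAA were in 4 (11.1%), namely ATM, BRIP1, FANCC and UBE2T, beside 15.2% of all promoters and 9.39% of the protein-coding genes tested. The CCAAT box, with the letters CCAAT, was in 16 (44.4%), beside 34.6% and 37.0%. Of the 20 members with a promoter that were lower by adjusted p without vehicle replicate 3, 3 held the E2F letters, 3 the CHR letters and 9 the CCAAT box, and of the 5 higher the numbers were 1, 0 and 1. RefSeq lists more than 1 start for 11 of the 36 genes, and the starts lie far apart for BRCA1 (44963 bases) and RAD52 (40347 bases), where the first listed start may not be the one used in these cells. The first listed start also lies far inside the gene of GENCODE 29 for RBBP8 (135067 bases), FANCC (109087 bases), RAD52 (40359 bases), RAD51B (3762 bases), MUS81 (3307 bases), RAD51D (1764 bases) and CHEK1 (1093 bases). It lies less far inside for RAD50 (958 bases), CHEK2 (602 bases), ATM (583 bases) and TOPBP1 (439 bases). All of these distances exceed the 250 bases searched before the start, so those windows do not reach the gene start of GENCODE 29. FANCC is among the genes named for both the E2F and the CHR letters. Counted over every listed window, 5, 4 and 17 of the 36 genes held the 3 motifs, with BRCA1 added for the CCAAT box. Of the genes called lower, FANCD2 has an E2F match across the start, FANCA an E2F match and a CCAAT box, ATM a CHR match and a CCAAT box, CHEK2 3 CCAAT boxes, MRE11 2 and MUS81 1. RAD51C, called higher, has no match in its window, and neither have BRCA1, RAD51B, RAD51D, RAD52 and SLX4, which were called lower. Among the genes higher by adjusted p without vehicle replicate 3, XRCC2 has an E2F match and XRCC3 has 5 CCAAT boxes. A match is a description of the letters and not of binding. The windows of FANCD2, CHEK2, ATM and RAD51C are shown 5′ to 3′ along the gene to 20 bases past the start, with matches in capitals, at chr3:10026187-10026456 (plus strand) for FANCD2, chr22:28741801-28742070 (minus strand) for CHEK2, chr11:108222817-108223086 (plus strand) for ATM and chr17:58692323-58692592 (plus strand) for RAD51C. No matches overlap in these windows. The E2F match of FANCD2 begins at position −2 from the start. The CCAAT boxes of CHEK2, read on the other strand, begin at −199, −70 and −40, and ATM has its CCAAT box at −188 and its CHR match at −20.
FANCD2: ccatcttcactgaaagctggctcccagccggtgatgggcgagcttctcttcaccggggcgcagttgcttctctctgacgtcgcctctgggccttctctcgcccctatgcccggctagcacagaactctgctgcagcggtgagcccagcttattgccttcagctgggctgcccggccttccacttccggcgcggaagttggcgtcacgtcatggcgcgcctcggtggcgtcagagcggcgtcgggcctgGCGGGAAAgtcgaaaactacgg
CHEK2: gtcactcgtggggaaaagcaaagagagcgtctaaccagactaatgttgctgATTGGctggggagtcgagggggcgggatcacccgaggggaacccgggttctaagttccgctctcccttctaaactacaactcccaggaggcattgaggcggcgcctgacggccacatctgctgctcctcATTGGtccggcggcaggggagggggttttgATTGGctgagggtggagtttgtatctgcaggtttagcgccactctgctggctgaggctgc
ATM: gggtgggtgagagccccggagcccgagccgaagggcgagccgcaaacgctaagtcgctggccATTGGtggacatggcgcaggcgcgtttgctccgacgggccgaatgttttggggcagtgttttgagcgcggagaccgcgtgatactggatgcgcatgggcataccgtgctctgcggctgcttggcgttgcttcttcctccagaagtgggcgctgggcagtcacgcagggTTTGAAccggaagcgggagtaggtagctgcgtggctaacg
RAD51C: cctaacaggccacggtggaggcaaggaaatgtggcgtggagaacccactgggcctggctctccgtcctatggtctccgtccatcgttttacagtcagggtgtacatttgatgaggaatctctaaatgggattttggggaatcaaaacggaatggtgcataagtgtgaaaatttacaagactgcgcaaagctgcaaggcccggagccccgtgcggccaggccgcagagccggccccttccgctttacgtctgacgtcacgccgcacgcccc

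Some counts are uncertain because exons are shared. On the same strand, RAD50, ATRIP, RAD51D, RAD54B and CHEK1 share exon bases with another protein-coding gene: 7784 bases of RAD50 with AC116366.3, 1515 of ATRIP with TREX1, 905 of RAD51D with the read-through gene RAD51L3-RFFL, 3139 of RAD54B with FSBP and 80 of CHEK1 with STT3A. On the opposite strand, 12 members overlap an exon of a protein-coding gene, among them FANCA with 2302 bases of ZNF276 and XRCC3 with 5756 bases of KLC1. The study's methods describe strand-specific libraries, whereas the labels name a TruSeq RNA kit that does not mark strand. Whether the counting used strand is not given in the sources used here, and without it the reads of such pairs cannot be told apart.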

How the data were processed

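RNA of SK-UT-1 from 4 vehicle and 4 TP-472 samples was analysed. The authors quantified reads with Salmon 1.4.0 (also named in the submitters' processing notes) and summed them to genes with tximport and GENCODE 34. What the authors deposited are estimated counts, neither scaled nor filtered. They were rounded, genes over 1 CPM in at least 4 of 8 libraries (14073) were kept, and TP-472 was tested against vehicle by the edgeR 4.0.16 quasi-likelihood fit (R 4.3.3) after TMM scaling, with Benjamini-Hochberg adjustment. A gene was called at an adjusted p under 0.05 and a fold change over 1.5. Standard errors are the fold change divided by the root of F. Members with a call in either fit are given by library, with the rest as estimates, and the other lists by counts with up to 2 called genes in each direction. The values of 1 gene of these lists are not reported here, although counts include it. Members, lists and motifs were chosen with earlier results of these data known. Coordinates and GC content are from GENCODE 29 on GRCh38, joined by identifier without version. Alternatives were DESeq2 1.42.0, limma-voom (limma 3.58.1), other scalings, filters and call rules, unrounded counts, robust estimation, a replicate block, removal of the GC trend and each library left out. Protein-coding genes alone and the GC trend with vehicle replicate 3 out were added after seeing the data. The lowest mean chi-square between libraries was 12.8 (near 1 for copies). The calculations were tested on simulated data.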

Additional observations from a re-analysis of the deposited data

Results flagged for a closer look

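In each group the highest or the lowest of the 4 libraries was set against the rest for every member and for the summaries of each library. A library was listed when its gap to the nearest other library was more than 0.829 of the group's range, which chance gives in about 1 of 20 groups. That happened in 17 of the 86 groups, 15 of them levels of members.

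Vehicle replicate 3 accounted for 11 of the 15. It was far below the other vehicle libraries for ATM at 150.5 CPM, ATR at 100.7 CPM, BLM at 47.8 CPM, BRIP1 at 71.8 CPM, FANCI at 169.4 CPM, FANCM at 32.2 CPM, MRE11 at 39.7 CPM, PALB2 at 22.3 CPM and WRN at 40.1 CPM. It was far above them for XRCC2 at 78.1 CPM and XRCC3 at 78.4 CPM. In the edgeR fit, ATM and MRE11 were called lower without this library and not with it. With this library kept and the GC trend removed, both were also called lower. The estimates were then −0.62 (adjusted p = 1.2e-04) for ATM and −0.66 (adjusted p = 1.08e-04) for MRE11.

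TP-472 replicate 4 accounted for the other 4. It was above the other treated libraries for BRCA2 at 65.7 CPM, FANCB at 24.2 CPM and FANCM at 53.8 CPM, and below them for RAD51C at 33.4 CPM. The level of RAD51C in that library was still above all vehicle libraries. The median Spearman correlation with the own group was low for vehicle replicate 3, at 0.914, and for TP-472 replicate 4, at 0.993, where the other treated libraries had 0.996 to 0.997.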

How the results depend on the processing

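Over the alternatives run, the members' median log2 fold change stayed below 0. RAD51B kept its call in all of them but the test against a 1.5-fold change, which called 1123 genes and 0 members lower or higher. RAD51D, RAD52 and FANCD2 lost theirs in 1 further alternative each, RAD51D and RAD52 without vehicle replicate 3 and FANCD2 without vehicle replicate 1 (−0.57, just under the fold limit). Without a limit on the fold change 5102 genes were called, 16 members lower and 3 higher. By limma-voom 3656 genes were called, 5 members lower and 1 higher. With DESeq2, RLE scaling, robust estimation, unrounded counts or protein-coding genes alone each member kept its call and its sign. The replicate block gave 4 members lower, 0 higher and 3055 genes; the numbers did not pair the libraries (correlations of same-numbered deviations −0.055, 0.12, −0.17 and −0.18). With the GC trend removed, and with vehicle replicate 3 left out as well, 0 members were higher. Leaving out each library gave 4 to 9 members lower, 0 to 1 higher and 2690 to 4223 genes. The fewest genes were called without TP-472 replicate 3. The count of 4 members lower came without vehicle replicate 1 or TP-472 replicate 1, 2 or 3. It was 8 without vehicle replicate 2, 9 without vehicle replicate 4, and 6 without vehicle replicate 3 or TP-472 replicate 4. SLX4, FANCA, MUS81, CHEK2 and RAD51C lost their call in 8 to 11 of 21 alternatives that kept the call rule. Members whose sign turned were called in no fit. With limma-voom these were BRCA2 (0.0016), RAD51AP1 (0.0061) and ATR (0.015), and with the block BRCA2 (0.0014) and ATR (0.013). FANCL turned with upper-quartile scaling (−0.0080), total-count scaling (−0.00091) and no filter (−0.012). Removing the GC trend turned XRCC2 (−0.017), XRCC3 (0.27), RAD50 (−0.10), BLM (−0.029), TOPBP1 (−0.023) and FANCL (−0.082), and with vehicle replicate 3 out too XRCC3 (0.35), RAD50 (−0.064), NBN (−0.016), BLM (−0.024), TOPBP1 (−0.089), FANCB (−0.015) and FANCL (−0.23). Over the libraries left out, BRCA2 ran from −0.12 to 0.070, RAD51AP1 from −0.32 to 0.073, XRCC3 from −0.37 to 0.22, RAD50 from −0.042 to 0.11, NBN from −0.033 to 0.25, ATR from −0.18 to 0.042, BLM from −0.0024 to 0.16, TOPBP1 from −0.055 to 0.17, FANCB from −0.030 to 0.29, FANCL from −0.23 to 0.15 and FANCM from −0.21 to 0.035, the lowest of each without vehicle replicate 3 except for XRCC3, where it gave the highest. Causes of these changes were not tested. Every member had at least 79 counts in every library, and the part of depth was not tested.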
